A study of Mus musculus with 2 samples.

Results

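Collagens are the fibre- and sheet-forming proteins of the extracellular matrix. Their genes were described here across 2 mouse neural progenitor lines, as every non-control probe whose gene name on the array is Col, a number, a and a number. This rule took 78 probes of 40 collagen genes, out of 27665 genes with a probe on the array. Both are versions of N31, a neural progenitor line (strain 129/Ola) obtained from induced pluripotent stem cells that go back to NSEB5-2C. N31 carries the reprogramming factors Oct3/4, Sox2, Klf4 and c-Myc under doxycycline control. One line was transfected with CAG-EGFP-IP, which drives the green fluorescent protein EGFP from the general CAG promoter, and the other with CAG-Pax6-IP, which drives Pax6, a transcription factor of eye and forebrain development. Both constructs were inserted with the Tol2 transposon. Both lines received doxycycline for 24 h, a time at which the design notes a visible change of shape for the EGFP line alone, and RNA was then hybridised to 1 Agilent 1-colour array per line. The question was whether Pax6 acts on the mesenchymal to epithelial transition, through which reprogrammed cells become epithelial.

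A collagen molecule is a triple helix of chains rich in regularly spaced glycine. Fibrillar collagens assemble into the banded fibres of connective tissue, collagen IV forms the sheet of basement membranes, collagens VIII and X form hexagonal networks, and transmembrane collagens stay in the cell surface until their outer part is shed. Collagen I is a classical marker of mesenchymal cells, while collagen IV underlies epithelia and also surrounds blood vessels and the outer surface of the brain.

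Each line has a single array, so no difference has a replicate check and none has a p-value. A gene was counted where the arrays differed by 2-fold or more, and "higher" and "lower" always mean the Pax6 line relative to the EGFP line. Differences are on the log2 scale after each array was scaled to its 75th percentile, and the value after ± is the scanner software's error of the signal. For bright spots this error is mainly a preset 10% of the signal, not a measured spread. The error leaves out how far separate cultures would differ, so precision is limited by having 1 array a line. Spots well above background made up 64.7% (EGFP) and 67.2% (Pax6) of the non-control spots. Pax6 itself read 557 in the EGFP line and 822 in the Pax6 line (arbitrary signal units), a difference of 0.35 ± 0.20, and whether its probe lies in the part carried by the construct is not stated in the labels or the files. Every direction below therefore rests on the labels of the arrays.

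Collagen genes differed between the lines in both directions. Of the 40 genes, 29 could be read above background, 28 with both arrays and Col12a1 with that of the Pax6 line alone. The other 11 were dim, which here means not well above background with either array. Higher by 2-fold or more were 5 of the 29 (Col12a1, Col3a1, Col2a1, Col23a1 and Col24a1), and lower by as much were 3 (Col1a1, Col1a2 and Col22a1). These 8 genes are 27.6% of the 29, whereas 4.79% of all 18517 genes above background differed by at least 2-fold (2.39% higher and 2.40% lower). The median difference of the collagens was 0.03 and that of all genes was -0.01. The median size of the difference, without its sign, was 0.43 for collagens and 0.18 for all genes. Within 1.5-fold were 62.1% of the collagens and 85.0% of all genes. More than 2 times its measurement error separated the arrays for 12 of the 28 collagen genes measured on both (6 higher, 6 lower), which is 42.9% of them against 17.5% of all genes measured on both. In RNA from whole cultures, fewer cells that make a collagen and less RNA per cell cannot be told apart.

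**Figure D1:**
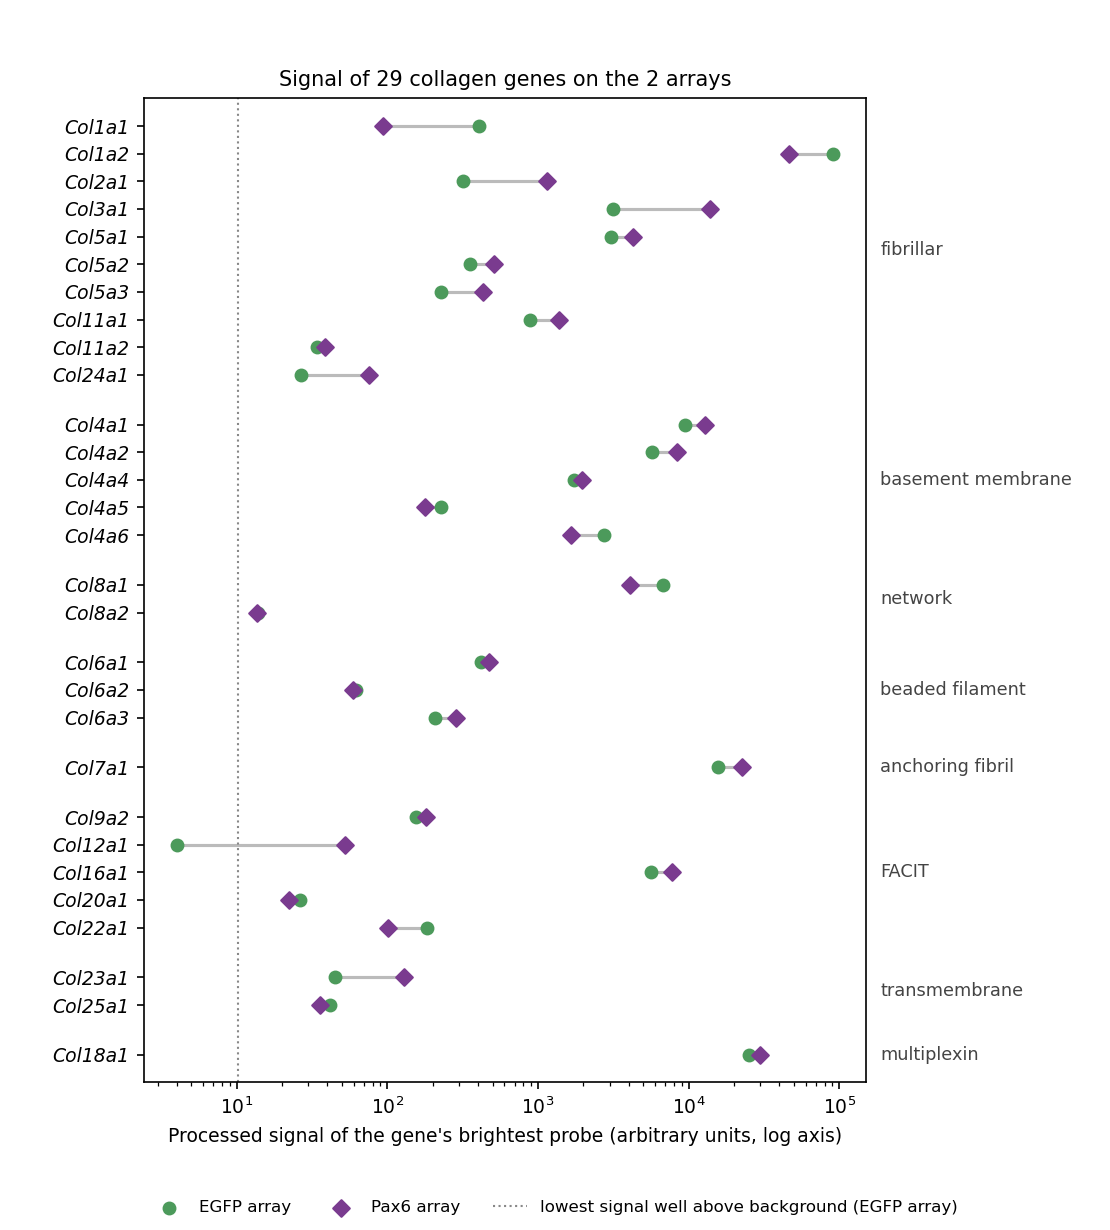
Processed signal (arbitrary units, log axis, before scaling between arrays) of the brightest probe of each of the 29 collagen genes above background, with a circle for the EGFP array and a diamond for the Pax6 array, grouped by structural class. The widest gaps among genes measured on both arrays are those of Col1a1, from 407 down to 93.95, and Col3a1, from 3152 up to 13889, and Col12a1 lies below the dotted line on the EGFP array only.

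**Figure D2:**
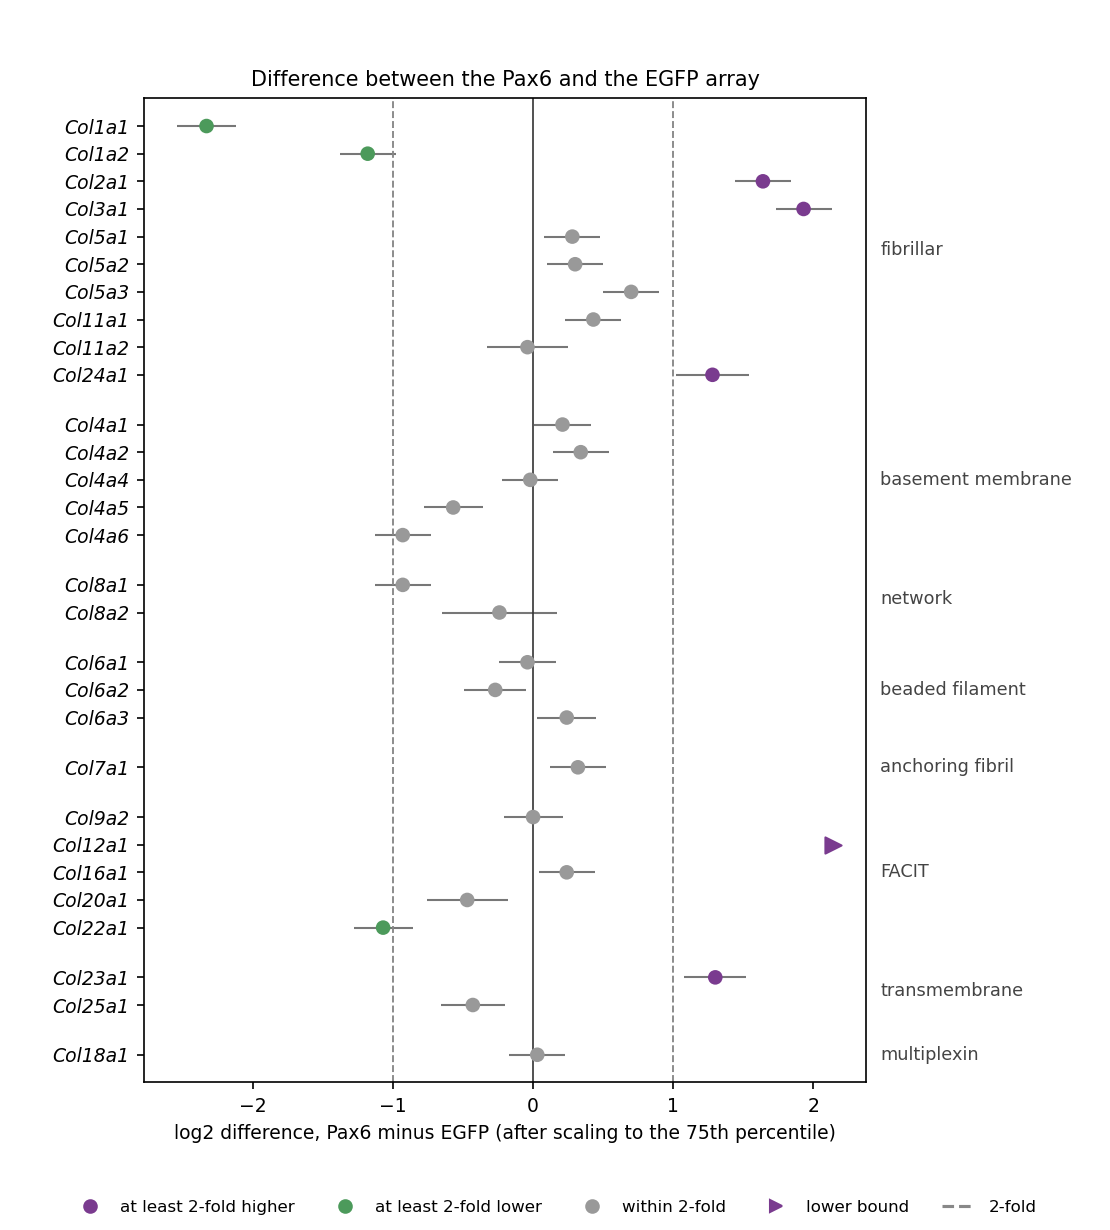
Log2 difference (Pax6 minus EGFP) of the same 29 genes, where bars are the measurement error, dashed lines mark 2-fold and the triangle is a lower bound. Of the 10 fibrillar genes 3 lie right of the upper line and 2 left of the lower line, and no basement membrane or beaded filament gene passes either line.

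Fibrillar collagens held 5 of the 8 large differences and were 10 of the 29 collagen genes above background. Collagens on the surface of fibres held 2 among 5 genes above background, and transmembrane collagens 1 among 2. The other classes held 0. Over all genes above background the share was 4.79%. With so few genes in a class, these counts do not set fibrillar collagens apart from those 2 classes. Of 11 fibrillar genes, 10 were above background on both arrays, and their median difference was 0.37. The genes of collagen I, the main fibre of bone, skin and tendon, were lower in the Pax6 line. Col3a1, the gene of collagen III, which forms finer fibres in soft tissues and vessel walls, was higher. Col2a1, the gene of the cartilage collagen, and Col24a1, of a minor fibrillar collagen, were higher as well.

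Col1a1 encodes the main chain of collagen I and has 3 probes on chromosome 11 (mm7). The probe at 95060800 to 95060859, printed on 10 spots, read 385 to 437 with a median of 405 in the EGFP line and 91.6 to 98.6 with a median of 93.95 in the Pax6 line. The spots of the arrays did not overlap, and every EGFP spot was brighter, in signals before scaling. Spots of a probe share an array and an RNA sample, so they are not replicates of a line. The difference was -2.33 ± 0.21, with an SD of 0.063 over the spots, or 5.03-fold lower. The probe 1023 bases upstream, at 95059777 to 95059836, read 34.3 in the EGFP line and 16.4 in the Pax6 line, a difference of -1.28 ± 0.36. Both probes put Col1a1 lower by at least 2-fold and disagree on the size. The third probe, at 95047002 to 95047061 and 13798 bases upstream, read 4.39 and 4.22 and stayed dim with both arrays.

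Col1a2 encodes the other chain of collagen I. Its brightest probe (chromosome 6, 4493505 to 4493564) read 90871 in the EGFP line and 46506 in the Pax6 line, a difference of -1.18 ± 0.20, or 2.27-fold lower. Its other probe (4466659 to 4466718), designed on a separate cDNA 26846 bases upstream, read 87.5 and 29.6, a difference of -1.78 ± 0.23. Both chains of collagen I were thus lower on all 4 probes that read them above background.

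Col3a1 has 3 probes on chromosome 1. The brightest (45585395 to 45585454) read 3152 in the EGFP line and 13889 in the Pax6 line, a difference of 1.93 ± 0.20, or 3.80-fold higher. A probe 27228 bases upstream (45558167 to 45558226) read 14.3 and 42.5, a difference of 1.36 ± 0.32. The probe between them (45561053 to 45561112) read 4.44 and 5.80 and stayed dim with both arrays. The probes of Col3a1 and those of collagen I gave opposite directions, and this held under each of 12 alternative ways of processing. The values were 1.64 to 2.01 for Col3a1, -2.33 to -1.70 for Col1a1 and -1.48 to -1.10 for Col1a2. Some of the 12 could not change these values, because they altered only the call, the filter or the handling of dim probes.

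**Figure D3:**
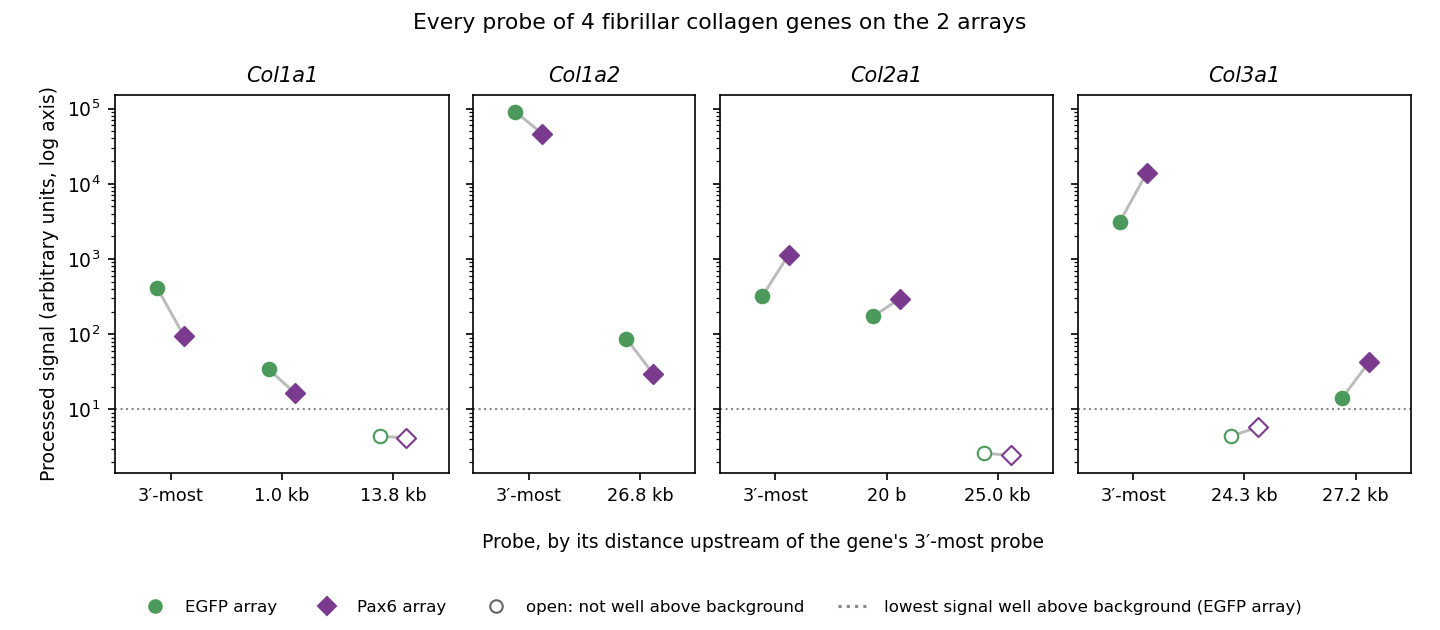
Processed signal (arbitrary units, log axis, before scaling between arrays) of every probe of Col1a1, Col1a2, Col2a1 and Col3a1, ordered by distance upstream of the gene's probe nearest the 3′ end, with open symbols for spots not well above background. In every filled pair the Pax6 signal is below the EGFP signal for Col1a1 and Col1a2 and above it for Col2a1 and Col3a1.

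The stretches before the RefSeq starts of Col1a2 and Col3a1 are shown because these fibrillar genes differed in opposite directions. RefSeq windows (GRCm38.p6, the C57BL/6J reference) were found for 32 of the 40 genes. The 250 bases before the start are given 5′ to 3′, for Col1a2 at chr6:4505368-4505617 on the + strand and for Col3a1 at chr1:45311288-45311537 on the + strand. Capitals mark matches on either strand to the CCAAT box (CCAAT), the TATA box (TATAAA) and the GC box (GGGCGG).
Col1a2: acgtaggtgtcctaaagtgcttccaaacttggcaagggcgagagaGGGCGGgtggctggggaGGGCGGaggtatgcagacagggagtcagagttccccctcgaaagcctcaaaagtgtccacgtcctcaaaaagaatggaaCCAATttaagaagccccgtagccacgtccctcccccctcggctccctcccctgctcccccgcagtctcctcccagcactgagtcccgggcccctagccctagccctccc
Col3a1: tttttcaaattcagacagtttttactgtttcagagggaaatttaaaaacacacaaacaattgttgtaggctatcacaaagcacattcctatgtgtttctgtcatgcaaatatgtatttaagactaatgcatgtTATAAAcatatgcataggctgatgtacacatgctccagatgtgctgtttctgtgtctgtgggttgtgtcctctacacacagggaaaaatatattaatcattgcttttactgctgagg
The Col1a2 window holds 1 CCAAT and 2 GGGCGG matches, and the Col3a1 window holds 1 TATAAA match. No matches overlap. Of 32851 such windows of 250 bases in the table, 33.8% hold a CCAAT match, 12.4% a TATAAA match and 32.7% a GGGCGG match, so each is common. The matches describe letters only, and no binding was measured here.

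Col2a1 was higher in the Pax6 line by both of its readable probes, which disagree on the amount. The probe at chromosome 15, 97979237 to 97979296, printed on 10 spots, read 202 to 368 with a median of 330 in the EGFP line and 743 to 1310 with a median of 1199 in the Pax6 line. These spots did not overlap, though again they are not replicates of a line. Its difference was 1.64 ± 0.20, or 3.11-fold higher, but single spots gave 1.30 to 2.39, with an SD of 0.281. A probe whose start is shifted by 20 bases and which overlaps it (97979257 to 97979316) read 173 and 299, a difference of 0.58 ± 0.20, within 2-fold. The gap between these overlapping probes exceeds the measurement error, so the size of the Col2a1 difference is less sure than its direction. A probe 25031 bases upstream, at 98004268 to 98004327, was not well above background.

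Col24a1 read 26.9 in the EGFP line and 75.6 in the Pax6 line (chromosome 3, 145448673 to 145448732), a difference of 1.28 ± 0.26. With normexp background correction it was 0.48, within 2-fold. The other fibrillar genes lay within 2-fold. Collagen V, which nucleates collagen I fibres, was slightly higher by its brightest probes. Col5a1 read 3063 and 4301 (0.28 ± 0.20), Col5a2 read 357 and 510 (0.30 ± 0.20), and Col5a3 read 228 and 431 (0.70 ± 0.20). Of these 3 differences only that of Col5a3 exceeds 2 times its error, and a dimmer Col5a1 probe gave -0.08 ± 0.23. Col11a1, a chain of the cartilage collagen XI that also enters collagen V, read 881 and 1382, a difference of 0.43 ± 0.20. Its partner Col11a2 read 34.1 and 38.5, a difference of -0.04 ± 0.29, while its second probe read 19.6 and 13.7, a difference of -0.73 ± 0.33. The probes of Col11a2 thus disagree on whether it was lower. Col27a1 stayed dim with both arrays. Col3a1 and Col5a2 are neighbouring genes, and their differences were 1.93 and 0.30.

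None of the basement membrane collagens differed by 2-fold. Of 6 genes, 5 were above background on both arrays, with a median difference of -0.02. The chains of the common collagen IV, Col4a1 and Col4a2, were slightly higher, and the chains Col4a5 and Col4a6, which join in basement membranes of smooth muscle and some epithelia, were lower. Col4a1 (brightest probe on chromosome 8, 11167020 to 11167079) read 9503 in the EGFP line and 12765 in the Pax6 line, a difference of 0.21 ± 0.20, and its other probe gave 0.49 ± 0.20. Col4a2 (11416851 to 11416910) read 5717 and 8403, a difference of 0.34 ± 0.20, and its other probe gave 0.37 ± 0.20. Each of these differences is below 2-fold, and all 4 probes gave the same sign.

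Col4a6 has 3 probes on chromosome X and was lower by each. The brightest (135829764 to 135829823) read 2737 and 1670, a difference of -0.93 ± 0.20, and the others gave -1.01 ± 0.21 and -0.44 ± 0.20. These values fall on either side of 2-fold. Col4a5 (136352769 to 136352828) read 229 and 179, a difference of -0.57 ± 0.21. Col4a4, a chain of the kidney filter, read 1727 and 1971, a difference of -0.02 ± 0.20. Another Col4a4 probe, nearer the 3′ end, read 3.16 and 2.79 and stayed dim with both arrays. The value of Col4a4 thus rests on 1 probe. Col4a3, the partner of Col4a4, was not well above background with any of its 3 probes.

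Collagen IV genes lie in head-to-head pairs. In the RefSeq windows the starts of Col4a1 and Col4a2 are 21 bases apart on opposite strands, and those of Col4a6 and Col4a5 are 1343 bases apart. Members of both of these pairs had differences of the same sign, up for Col4a1 with Col4a2 and down for Col4a6 with Col4a5. By the brightest probes, neither Col4a1 (0.21 ± 0.20) nor Col4a2 (0.34 ± 0.20) exceeded 2 times its error. Whether the pairing plays a part was not tested. The neighbours Col4a4 and Col4a3 could not be compared, because Col4a3 stayed dim with both arrays. Shown next is the Col4a6 and Col4a5 pair. The 250 bases before the starts of this pair are shown because both genes were lower, for Col4a5 at chrX:141475169-141475418 on the + strand and for Col4a6 at chrX:141474077-141474326 on the - strand, with the same motifs in capitals.
Col4a5: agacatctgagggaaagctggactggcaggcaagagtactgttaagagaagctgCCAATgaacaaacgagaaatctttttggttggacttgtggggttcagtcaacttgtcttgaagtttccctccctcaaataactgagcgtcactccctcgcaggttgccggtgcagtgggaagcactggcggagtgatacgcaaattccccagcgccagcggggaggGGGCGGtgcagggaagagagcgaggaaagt
Col4a6: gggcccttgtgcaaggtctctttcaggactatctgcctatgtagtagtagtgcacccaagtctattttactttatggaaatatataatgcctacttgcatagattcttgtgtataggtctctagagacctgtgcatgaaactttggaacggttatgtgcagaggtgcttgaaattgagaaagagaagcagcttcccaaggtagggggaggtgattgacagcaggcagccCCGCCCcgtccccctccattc
Each window holds 1 GGGCGG match, on opposite strands relative to its gene, and that of Col4a5 also holds 1 CCAAT match.

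No network-forming collagen differed by 2-fold. Col8a1, a chain of the collagen of endothelial sheets and vessel walls, was lower on both probes. The brightest (chromosome 16, 57488371 to 57488430) read 6738 and 4105, a difference of -0.93 ± 0.20, and the other read 645 and 379, a difference of -0.98 ± 0.20. These values fall just short of 2-fold, as does the brightest probe of Col4a6, whereas Col22a1 and Col1a2 lie just past it. Its partner Col8a2 read 13.9 and 13.7, close to the dimmest signals that pass as above background (10.3 for EGFP, 9.63 for Pax6), so that its difference of -0.24 ± 0.41 is poorly determined. Col10a1, the collagen of hypertrophic cartilage, was not well above background.

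Beaded filament and anchoring collagens were within 1.5-fold by their brightest probes. Col6a1, Col6a2 and Col6a3 encode the chains of collagen VI, which forms microfilaments around cells. Their differences were -0.04 ± 0.20, -0.27 ± 0.22 and 0.24 ± 0.21. A second Col6a2 probe read 32.8 and 22.2, a difference of -0.78 ± 0.26, which is lower by more than 2 times its error. Col7a1, whose product anchors epithelia to the tissue below, was among the brighter probes, with 15652 in the EGFP line and 22698 in the Pax6 line, a difference of 0.32 ± 0.20. The multiplexin Col18a1, whose end fragment is endostatin, read 25234 and 29807, a difference of 0.03 ± 0.20, and its second probe gave 0.09 ± 0.20.

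Collagens that sit on the surface of fibres, the FACITs (fibril-associated collagens with interrupted triple helices), held a large difference in each direction. Of 9 genes 5 were above background. Col12a1, which binds collagen I fibres in tendon and other dense tissue, was well above background in the Pax6 line only. Its probe (chromosome 9, 79680905 to 79680964) read 4.03 in the EGFP line and 52.9 in the Pax6 line, which makes it at least 4.40-fold higher. The difference as measured was 3.50 ± 0.82, and with normexp background correction it was 0.81, within 2-fold. Col22a1, a collagen of tissue junctions such as that of muscle and tendon, was lower on both probes. They read 184 against 102 and 118 against 65.3, and both gave -1.07 ± 0.21. This lies just past 2-fold, and it fell within 2-fold after scaling by the median and with normexp background correction, where it was -0.53. Col16a1 read 5638 and 7736 (0.24 ± 0.20), Col9a2, a chain of the cartilage collagen IX, read 155 and 180 (0.00 ± 0.21), and Col20a1 read 26.5 and 22.2 (-0.47 ± 0.29). Col9a1, Col9a3, Col14a1 and Col19a1 were not well above background.

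Of the 4 transmembrane collagens, Col23a1 and Col25a1 were above background. Col23a1 was higher in the Pax6 line with each of its 3 probes (chromosome 11). The brightest (51537635 to 51537694) read 45.1 and 129, a difference of 1.30 ± 0.22, and the next (51540140 to 51540199) read 39.8 and 103, a difference of 1.16 ± 0.23. The third was well above background in the Pax6 line only, at least 1.60-fold higher. With normexp background correction Col23a1 differed by 0.74, within 2-fold. Col25a1, a collagen of neurons that also occurs in amyloid plaques, read 41.5 and 35.9, a difference of -0.43 ± 0.23, while another of its probes read 11.1 and 15.4, a difference of 0.25 ± 0.40. The sign of Col25a1 is thus not settled. Col13a1 and Col17a1, the latter a hemidesmosome component of epithelial cells, were not well above background.

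Probes of the same gene differed in whether they could be read. Among 23 collagen genes with probes more than 1000 bases apart, the probe nearest the 3′ end was above background on at least 1 array in 17, and the farthest upstream in 12. In 6 genes the nearest probe was above background and the farthest was not, among them Col1a1, Col2a1, Col24a1 and Col6a3, and probes between these ends were not compared. The reverse was found in 1 gene, Col4a4. Distances are those on the genome, and some of the dim probes were designed on separate cDNAs. Whether position itself mattered was not tested, and the same shares over all genes were not counted. For the 11 dim genes absence of the transcript was not shown. Over all collagen probes, 48 of 78 were above background on at least 1 array. Of these, 7 were higher and 7 lower by 2-fold or more, against 4.30% of all probes above background that differed by 2-fold.

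The genes that process, bind and degrade collagen were mostly within 2-fold, as were genes in general. Of 36 procollagen processing genes 30 were above background, Tll1 was higher and Loxl2 lower by 2-fold or more (1 gene each way). These are 6.67% of the 30, near the 4.79% of all genes above background. The median difference of the list was 0.21, with 23 of the 30 genes above 0. Over all 18517 genes above background the median was -0.01, with 8748 above 0. Loxl2, an enzyme that cross-links collagen IV, read 1150 in the EGFP line and 636 in the Pax6 line, a difference of -1.07 ± 0.20, and its second probe gave -1.17. Tll1, a protease that trims procollagen, read 6.19 and 26.1 and was at least 2.17-fold higher. The prolyl and lysyl hydroxylase genes P4ha1, Plod1 and Plod2, which modify the chains before they fold, differed by 0.26, 0.49 and 0.53. The collagen chaperone Serpinh1 read 37528 and 52198, a difference of 0.26 ± 0.20. P3h4 and Fkbp10, which act together with the lysyl hydroxylases, differed by -0.76 and -0.52. Lox, the main collagen cross-linking oxidase, stayed dim with both arrays.

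Among 10 collagen receptor genes, 8 were above background and Itga1 was the only one at least 2-fold different, which is 12.5% of 8 against the same 4.79%. Itga1 encodes the collagen-binding subunit of integrin alpha 1 beta 1 and read 122 in the EGFP line and 1306 in the Pax6 line, a difference of 3.20. All 4 of its probes were higher, by 1.35 to 3.28. Its partner Itgb1 differed by 0.05, and the receptor kinases Ddr1 and Ddr2 by -0.19 and 0.02. Of 13 genes of collagen degradation and its inhibitors, 11 were above background and Mmp1a, a collagenase, was at least 2-fold higher, which is 9.09% of 11. With 1 gene called in each, these shares say little about either list. It read 50.2 and 147, a difference of 1.33, and its second probe gave 0.91. The matrix proteases Mmp2 and Mmp14 differed by -0.08 and -0.33.

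**Figure D4:**
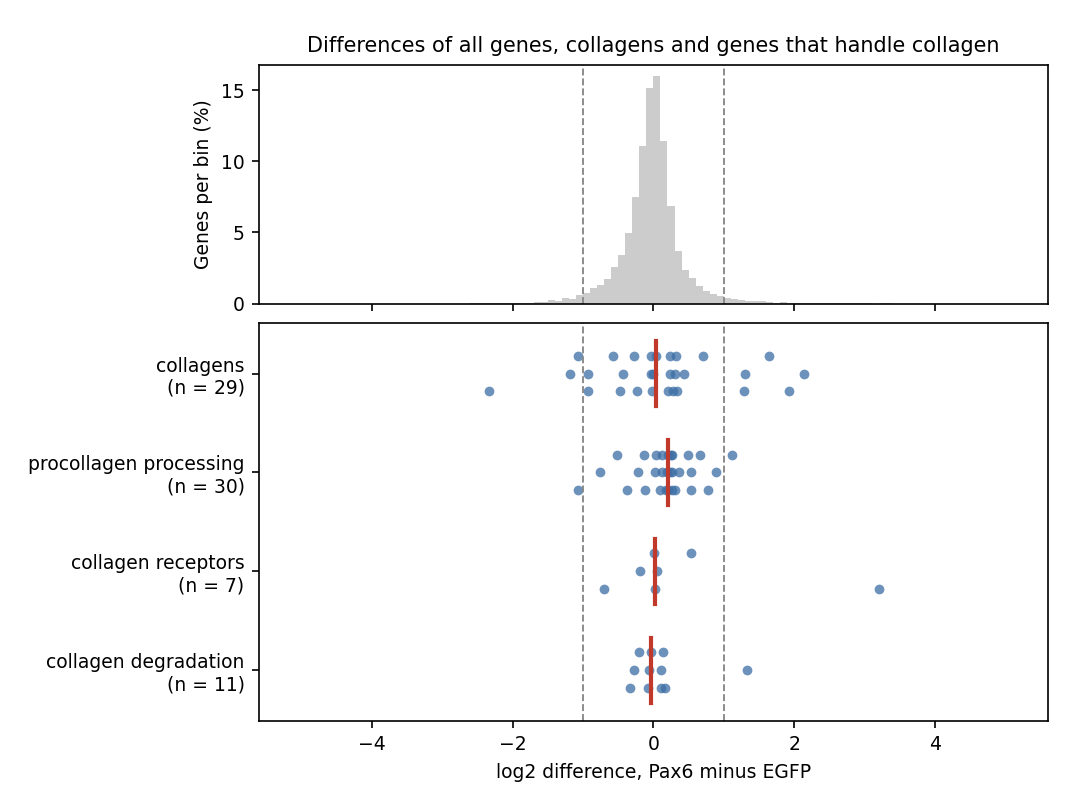
Upper panel, share of all genes in bins of 0.1 of the log2 difference (Pax6 minus EGFP). Lower panel, each point is a gene, red lines are medians and dashed lines mark 2-fold. The collagens reach past 2-fold on both sides around a median of 0.03. Of 30 processing genes 1 lies beyond 2-fold on each side. Of 8 receptor genes (7 have a value) 1 lies beyond it, as does 1 of 11 degradation genes.

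Markers of cell types that make collagen were read beside these values. For comparison with the counts below, 4.79% of all 18517 genes above background differed by at least 2-fold (2.39% higher and 2.40% lower). Of 12 neural progenitor markers, 11 were above background, 1 of them at least 2-fold higher and 2 lower. Sox2, also one of the doxycycline-driven factors, read 79.2 in the EGFP line and 307 in the Pax6 line (1.74 ± 0.21). Nes read 4678 and 1711 (-1.66 ± 0.20), and Slc1a3 read 306 and 27.5 (-3.69 ± 0.23). Of the 11 markers, 7 had a difference above 0, against 8748 of all 18517 genes above background. Sox1 (19.2 and 18.7) and Fabp7 (12.3 and 19.7) were close to the lowest signal well above background, and Hes5 was not above it, so the labelled cell type is not borne out by every marker. Of 12 fibroblast markers, 10 were above background, 3 of them at least 2-fold higher (Pdgfra, Dcn and Fap) and 2 at least 2-fold lower (Thy1 and Twist2). The summed signal of the fibroblast markers before scaling was 165051 in the EGFP line and 235738 in the Pax6 line, most of it from S100a4 (162949 and 231549). All sums given here are before scaling. The Pax6 array was the brighter as a whole, with a 75th percentile of 991 against 854, so the sums are not differences between the lines. Of 9 smooth muscle and pericyte markers, 7 were above background and 3 were at least 2-fold lower (Tagln, Cnn1 and Des), with sums of 19261 and 19532. Most of these sums came from Acta2 (12424 and 15621), and 5 of the 7 markers had a difference below 0. Of 10 epithelial markers, 9 were above background and all 9 were at least 2-fold lower, with sums of 65972 and 26989. The cartilage and bone markers Matn1 and Ibsp were not above background, and of 7 others 0 differed by 2-fold, with sums of 1980 and 2581. The endothelial markers Pecam1, Cdh5, Tie1 and Emcn were not above background, and the other 4 summed to 53.7 and 62.5. Of 6 astrocyte markers 5 were above background, with sums of 4684 and 5466. The 1 at least 2-fold higher was Aqp4, a bound, as it was well above background in the Pax6 line only (4.97 and 46.3). Of 6 microglia and blood markers 2 were above background, with sums of 349 and 293.5, and Ptprc, Aif1 and Itgam were not. The part of these markers in the collagen differences was not tested.

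**Figure D5:**
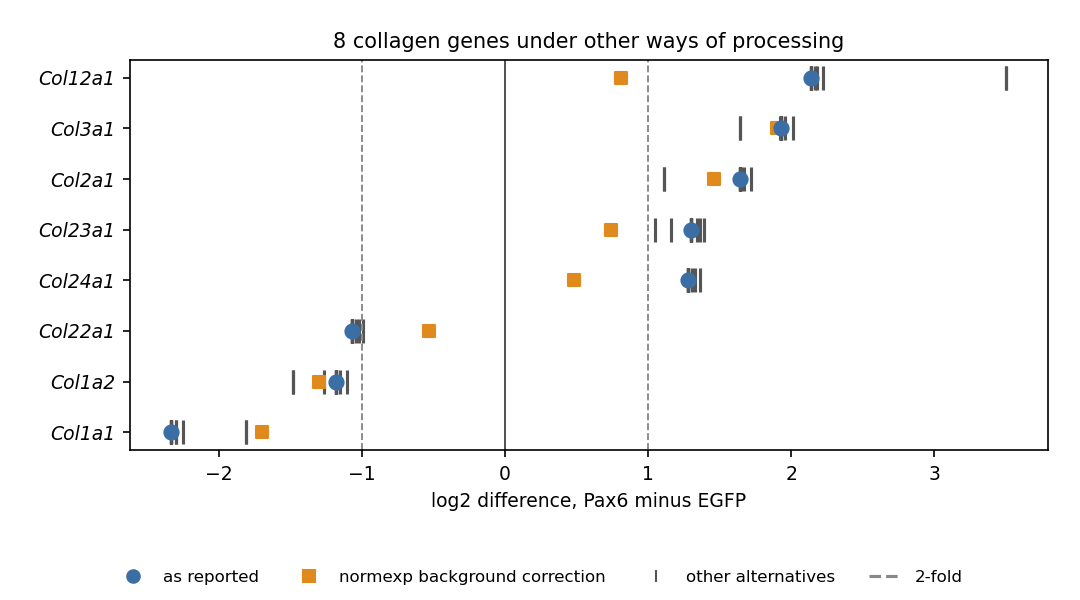
Log2 difference (Pax6 minus EGFP) of the 8 collagen genes at least 2-fold different, as reported (blue) and under the alternative ways of processing (orange for normexp background correction, ticks for the others). Each gene keeps its sign, and with normexp Col12a1, Col23a1, Col24a1 and Col22a1 fall within 2-fold while Col1a1, Col1a2, Col2a1 and Col3a1 do not. This setting adds an offset of 50 to each signal, which by itself makes the differences of dim genes smaller.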

How the data were processed

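Cy3-labelled RNA made by linear amplification was hybridised, per the labels' protocols. Spot values were taken with Agilent Feature Extraction, version 10.7.3.1, per the file headers. What the authors deposited as intensity is the processed signal, from which the software had removed background and a trend across the slide, as settings in the headers show. The series table repeats these deposited numbers exactly. Deposited flags (unit other) mark outlier and saturated spots and those above background by 13 of its SDs. No collagen spot of 96 was an outlier or saturated.

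Signals were put on the log2 scale, the array's 75th percentile was subtracted (signals of 854 and 991), and spots of a probe were averaged. A gene took its brightest probe among those well above background with at least 1 array. A probe dim on 1 array gave a lower bound, written as "at least", against the higher of its own signal and the lowest signal well above background. A bound under 1-fold (258 genes), which is not the same as under 1 on the log2 scale, was no value and no call. Symbols came from accessions for 22951 of 41168 probes (57 of 78 collagen probes), otherwise from names and synonyms. Probe coordinates are on mm7, and exons or introns are not named because no mm7 annotation was used. Every collagen gene above background was named, as was every gene of the related lists at least 2-fold different, and other list genes are examples chosen after their values were seen. The members and lists were chosen with earlier results of these data known.

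No test was made, with 1 array per group. Steps were tested on simulated data. Tools were Python 3.11.15, pandas 2.3.3 and limma 3.58.1. The 12 alternatives covered scaling, background correction (normexp, offset 50), the series table, the choice of probe, the filter, the fold and dim values. Normexp correction was followed by quantile normalization.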

Additional observations from a re-analysis of the deposited data

How the results depend on the processing

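None of the 8 collagen genes at least 2-fold different changed sign under any of the 12 alternatives that gave it a value. The sign did change or reach 0 for Col4a4, Col6a1, Col8a2, Col9a2, Col11a2 and Col18a1, whose reported differences lie between -0.24 and 0.03. Of the values of single collagen genes under the 12 alternatives, 322 stayed within the measurement error of the reported value and 25 moved by more. Many of the 322 could not have moved. The series table and the fold and error rules leave every gene's difference as reported. The filters and the handling of dim values do so for genes measured on both arrays. The 5 collagen genes at least 2-fold higher became 2 with normexp background correction, 8 with no filter on dim probes and 3 at a rule of 3-fold, which left 1 lower. The median of the FACIT collagens was -0.24 when both arrays had to read a gene above background, and with no filter that of basement membrane collagens was -0.30 and that of network collagens -0.24. The 1 processing gene higher became 0 with normexp, with that filter on both arrays, at 3-fold and with the error rule, and the 1 lower became 0 after scaling by the median and at 3-fold, and 2 with no filter. Degradation genes higher became 0 with normexp and at 3-fold, and receptor genes lower became 1 with no filter. Scaling by the median moved the median of all genes from -0.01 to 0.07. The share of higher genes among all those at least 2-fold different was 49.8%, and 59.5% after scaling by the median and 61.8% with normexp, where 1.51% of genes were called. No paired analysis was possible because each group holds 1 array. Signal near background limits Col8a2, Col11a2, Col12a1, Col20a1 and Col25a1. Low signal in the EGFP line also limits Col23a1 (45.1) and Col24a1 (26.9), both counted as higher.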

Other observations

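Collagen genes also appear on the array under other names. By accession, 4 further probes belong to Col6a4, Col6a6, Col26a1 and Col11a1, and were not counted as members. Col6a4, of the collagen VI family, gave signals of 28.8 (EGFP) and 24.3 (Pax6), with a log2 difference of -0.46. The further Col11a1 probe read 22.8 and 20.6, a difference of -0.36, against 0.43 for the brighter Col11a1 probe in the report. Those of Col6a6 and Col26a1 stayed dim with both arrays.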
